A study of Mus musculus with 6 samples.

Results

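Mouse microRNAs with names from miR-6896 to miR-7094 were followed in small RNA libraries of the renal cortex. The count tables listed 403 mature names in this range, 202 from the 5p arm and 201 from the 3p arm of their hairpins, among 1900 names in all. A name was counted as detected, and is called a member below, when its counts summed over the 6 libraries reached 10. This left 114 members (28.3% of the names in the range) from 104 hairpins. The members were thus chosen by their summed counts, so their level and the share detected are descriptions and carry no test.

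The libraries came from C57BL/6 mice kept for 8 weeks on a diet rich in fat and cholesterol with added bile salt, a diet used to bring about steatohepatitis. Tofogliflozin, an inhibitor of the renal glucose transporter SGLT2, was mixed into the diet of 3 mice (tofogliflozin group), and 3 mice received the diet without it (diet-only group). Both groups thus ate the lipid-rich diet, and no mice on ordinary chow were analysed here. The labels used here give neither the age nor the sex of the mice.

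Most animal miRNAs are cut from a longer transcript by the nuclear enzyme Drosha. Mirtrons take another route: the spliceosome releases the intron, the lariat is opened, and the short intron folds into a hairpin that Dicer can cut directly. In tailed mirtrons only 1 end of the hairpin is a splice site, and the stretch between the hairpin and the other splice site has to be trimmed.

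The sequences below are shown for the position of the mature miRNA in its intron. The names of this range were taken up here as predicted mirtron-type miRNAs. Their position at intron ends thus describes the annotation and is no finding from these libraries. Sequences are from RefSeq (GRCm38.p6, the build also known as mm10). The entries used here gave one for 100 of the 114 members. These entries did not cover every chromosome. This does not account for every gap, as miR-6956-3p had no sequence while miR-6956-5p had one. A sequence lacking here need not be lacking in RefSeq. All figures on sequences, seeds, hairpins and introns below, also for names outside the range, cover only these entries. They are written 5′ to 3′ with the seed, bases 2 to 8, in capitals. Shown first are the 3p members with a sequence among the 10 most abundant and those with the smallest p in each direction. All of them end in the letters ag, the last letters of an intron.
miR-6988-3p: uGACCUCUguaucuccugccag
miR-6900-3p: uGGUGAUGggcucucuuguag
miR-7015-3p: uCUCACUGuccucugcacuag
miR-6899-3p: uUGUCCUUcugugucuucugcag
miR-6989-3p: uGUCCACUgucucuggucccag
miR-6944-3p: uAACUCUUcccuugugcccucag
miR-7043-3p: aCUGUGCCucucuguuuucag
miR-7019-3p: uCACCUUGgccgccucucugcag

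The next sequences are the most abundant 5p member, chosen after its values were seen, and the 5p member with the smallest p. They lie in the other arm of the hairpin and end 32 bases before the last base of their intron in both cases.
miR-7059-5p: aCCGGGGAcugcggcuuucagu
miR-7049-5p: uCUGAAGGcagucagguaggcgg

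A pair of whole hairpins shows the 2 forms found, here with the first 2 and the last 2 bases in capitals. The miR-6988 hairpin lies at chr19:6051334-6051392 on the plus strand and fills the last 59 bases of an 82-base intron of Syvn1, which encodes a ubiquitin ligase of the endoplasmic reticulum. It ends with the intron but begins inside it. The miR-6944 hairpin lies at chr13:55477681-55477776 on the minus strand and is the whole 96-base intron of Dbn1, the gene of the actin-binding protein drebrin. It starts with GU and ends with AG, the letters at both ends of the intron.
miR-6988 hairpin: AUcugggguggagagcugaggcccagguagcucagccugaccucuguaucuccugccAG
miR-6944 hairpin: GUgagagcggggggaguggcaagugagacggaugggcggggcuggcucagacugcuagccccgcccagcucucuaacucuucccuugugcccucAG

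Placed on the introns of GENCODE M21, 61 of the 68 3p members with a sequence (89.7%) ended exactly at the last base of an intron, and 67 ended within 2 bases of it. Among the 498 3p names outside the number range this was so for 21 (4.22%), and 218 of those lay in no intron at all. Names of the range that were not detected stood between, with 74 of 108 (68.5%) at the last base. Put the other way, 61 of the 135 3p names of the range that ended at the last intron base were detected (45.2%), against 7 of the 41 that ended elsewhere (17.1%). This last contrast uses the detection rule itself and is given without a test.

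**Figure D1:**
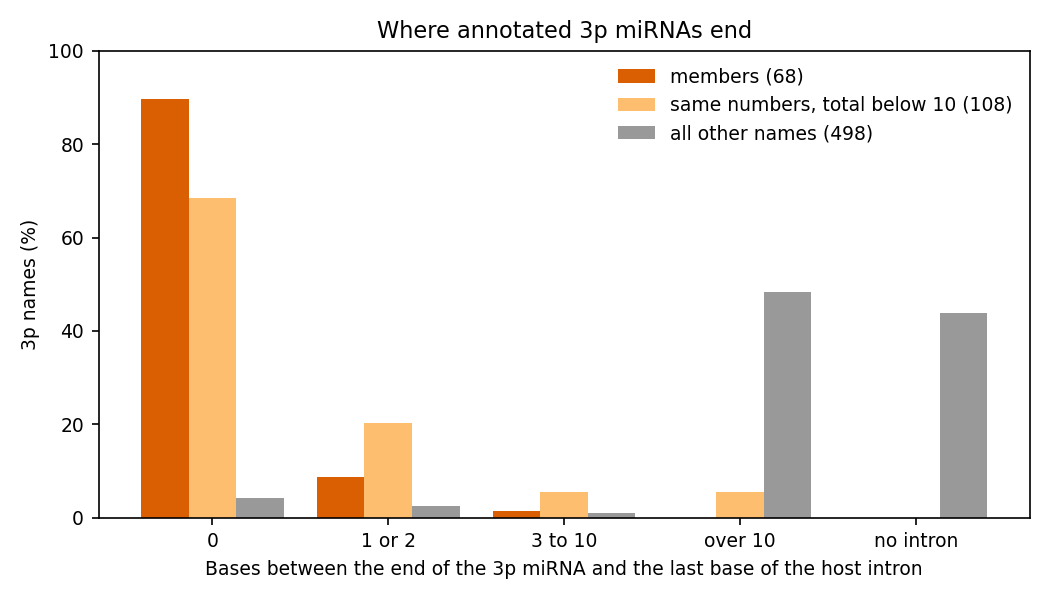
Share of 3p names (%) by the number of bases between the end of the mature miRNA and the last base of its host intron, for 68 detected names from miR-6896 to miR-7094, 108 names of these numbers with fewer than 10 counts, and 498 names with other numbers. The detected names stand almost wholly at 0 bases (89.7%), while 43.8% of the names with other numbers lie in no intron.

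The hairpins were placed with a wider window. Of the 87 hairpins that held a member and had a hairpin sequence, 80 (92.0%) had only their 3′ end within 10 bases of an intron end, and 7 had both ends there, 5 of them exactly. Of the 745 hairpins of other numbers, 31 (4.16%) had only the 3′ end at an intron end and 8 (1.07%) had both. The 93 hairpins of the range without a member had shares of 86.0% and 8.60%, against 92.0% and 8.05% with a member. By annotated position the hairpins, with or without a member, had the form of mirtrons, mostly the tailed one. The range was taken up as predicted mirtron-type miRNAs, so the contrast with other numbers was to be foreseen. These positions come from the annotation and not from reads of these libraries. How the miRNAs are made was not measured. A hairpin that runs from GU to AG was found in 10 of the 87 (11.5%). It was found in 11 of the 93 without a member (11.8%) and in 9 of the 745 of other numbers (1.21%). Only 5 of the 87 matched both intron ends exactly, so these letters alone do not mark a whole intron.

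The host introns of the 3p members were not all short. Their length ran from 73 to 36269 bases with a median of 461, and miR-6899-3p, at the end of a 36269-base intron of the transcription factor gene Klf7, was among the 10 most abundant members. Detection hardly moved with the length of the intron. It was 39.3% for 3p names in introns of up to 200 bases, 39.0% in introns of over 200 and up to 1000 bases and 37.7% in longer ones. Across the 68 3p members Spearman's rho between total counts and intron length was -0.13, a description across miRNAs that share the same 6 libraries.

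The 2 arms differed in composition. The median 3p member was 71.4% pyrimidine (C or U), against 54.5% for 3p names outside the range, and 41 of 68 (60.3%) began with U. The median 5p member was 41.7% G, against 27.3% for other 5p names. The 32 5p members with a sequence ended 24 to 65 bases before the 3′ splice site (median 39), and only miR-7068-5p, in an intron of Cherp, began at the first base of its intron. Undetected names of the range had nearly the same pyrimidine content in the 3p arm (72.7%), so this feature did not separate detected from undetected names.

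Members had little sequence in common with each other or with other miRNAs. The 100 members with a sequence carried 98 different seeds. The seed of miR-7018-3p was also that of miR-7068-3p, and the seed of miR-7034-5p was also that of miR-7071-5p. A further look at all names with a sequence showed that 18 members had a seed found in some name that was no member. Where the other name was itself well detected, as for miR-6932-3p, whose seed is found in miR-26a-2-3p and miR-26b-3p, that name had up to 836 counts in all. In no case was a member with a sequence within 3 mismatches of another mature miRNA among the entries used, with 17 or more bases compared. The nearest had 4 mismatches and the median was 6.

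The libraries, counted from the row with the most reads for each name, held 6643634 to 22886197 counts. Tofogliflozin replicate 2 was the smallest and stood apart from the other 5 on the first principal component of all tested miRNAs, which held 52.0% of the variance. Some, but not all, of the results that rest on this library are also given without it. The same library had 248 CPM (counts per library, all libraries set to the same total) of the liver miRNA miR-122-5p, against 39.0 to 78.0 CPM in the other 5, and what part this had in the results was not tested. The kidney tubule miRNA miR-192-5p was at 46895 to 54337 CPM, miR-194-5p at 2638 to 3774 CPM and miR-30a-5p at 16925 to 30043 CPM. In each of these the groups overlapped. The tubule miRNA miR-204-5p had 253 to 282 CPM in the diet-only and 391 to 497 CPM in the tofogliflozin group (edgeR adjusted p 0.387). Higher values without overlap, as here, were found in 6.74% of all tested miRNAs. Other tissues were not compared, so these levels do not by themselves show a kidney origin. Of 2 neuroendocrine miRNAs miR-124-3p had no count and miR-375-3p had 144 to 198 CPM. A total of 3 counts, taken as the limit of a count of 0, stood for 0.131 to 0.452 CPM, and this limit covers counting error only.

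The members were rare. Together they made up 0.0113% to 0.0133% of the counts of a library. In diet-only replicates 1, 2 and 3 their summed abundance was 133, 113 and 114 CPM, and in tofogliflozin replicates 1, 2 and 3 it was 129, 115 and 124 CPM. The groups overlapped, with 120 ± 11.4 CPM in the diet-only and 123 ± 7.02 CPM in the tofogliflozin group (SD, n = 3 each). The difference was 0.03 on the log2 scale, and 0.07 without tofogliflozin replicate 2. In tissue extracts such as these, fewer cells of a type and less RNA per cell cannot be told apart.

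Detection in the range was compared with that in other numbers. Of the names from miR-1 to miR-999, 49.9% had at least 10 counts. The shares were 40.0% from miR-1000 to miR-2999, 21.3% from miR-3000 to miR-6895, 28.3% from miR-6896 to miR-7094 and 19.2% from miR-7095 up. Many names of the other ranges carry no arm. Among names with an arm the share was 31.1% from miR-3000 to miR-6895, above the 28.3% of the range, and 18.7% from miR-7095 up. The level of detected names was low, with a median of 0.318 CPM against 0.611 CPM just below the range and 0.458 CPM above it. Detected names up to miR-999 had a median of 11.6 CPM.

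**Figure D2:**
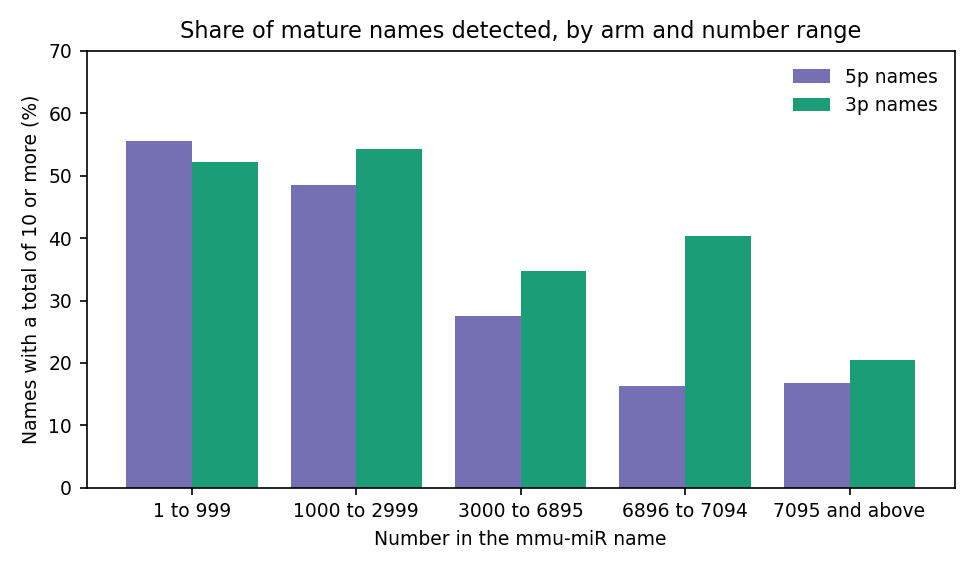
Share of mature names with 10 or more counts summed over the 6 libraries (%), for 5p and 3p names in 5 ranges of the number in the name. In the range from miR-6896 to miR-7094 the 3p bar (40.3%) stands far above the 5p bar (16.3%), a gap wider than in the other ranges.

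Total counts of the members ran from 10 to 2001 with a median of 29. There were 44 with 10 to 19 counts, 48 with 20 to 99 and 22 with 100 or more, and 61 were seen in all 6 libraries. At the lower edge, miR-6915-3p, miR-6940-3p and miR-6962-3p had a total of 10 and were members. Just outside, miR-6896-5p, miR-7009-3p and miR-7091-5p had a total of 9. A further 165 names had no count in any library. Libraries held 105 to 147 names of the range with a count, the fewest in tofogliflozin replicate 2. Brought to the size of that library, the expected number was 111, 114 and 112 in the diet-only and 121, 105 and 112 in the tofogliflozin libraries. At matched size the libraries thus lay close together.

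Counts were concentrated in a few members, all of them from the 3p arm. The 10 most abundant took 52.5% to 60.9% of the members' counts in a library. First was miR-6988-3p, from Syvn1, with 24.8, 20.6 and 20.4 CPM in the diet-only and 24.5, 29.1 and 17.3 CPM in the tofogliflozin replicates. Both the highest and the lowest value fell in the tofogliflozin group, so the diet-only libraries lay within its range. At 22.8 ± 4.16 CPM (SD, n = 6 libraries) it ranked 200 among all names by abundance.

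The next member was miR-6956-3p, with 15.03, 12.7 and 10.6 CPM in the diet-only and 14.6, 7.53 and 12.9 CPM in the tofogliflozin replicates. Its lowest value was in tofogliflozin replicate 2, and the groups overlapped. These were the only 2 members with a mean of 10 CPM or more, and their ranges did not meet. In all, 27 members had a mean of 1 CPM or more.

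Below them neighbours in the order were not separated. The mean over the 6 libraries was 6.49 ± 1.0 CPM (SD) for miR-6952-3p and 5.79 ± 1.70 CPM for miR-6900-3p, which lies in Ndufa10, a gene of a subunit of respiratory complex I. For miR-6972-3p it was 4.26 ± 1.54 CPM and for miR-7015-3p, from the ARF GTPase-activating protein gene Smap2, 3.86 ± 1.10 CPM. Each of these 4 overlapped with its neighbour in the order. Members further apart could be told from each other: miR-6952-3p, at 5.39 to 8.04 CPM, lay above miR-7015-3p, at 2.26 to 5.02 CPM, without overlap. The remaining 4 of the first 10 lay between 2.84 and 3.73 CPM. They were miR-6979-3p, miR-6899-3p, miR-6989-3p from the kinase gene Map4k2, and miR-6944-3p.

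**Figure D3:**
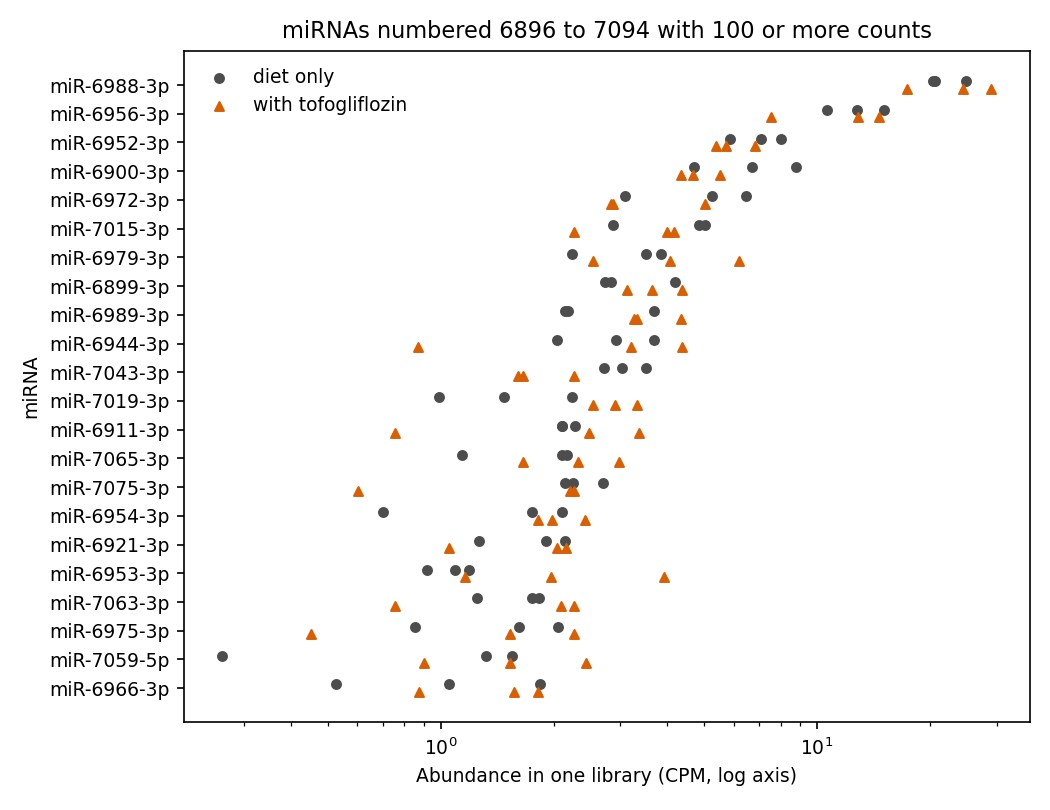
Abundance (CPM, log axis) in each of the 6 libraries of the 22 members with 100 or more counts in all, grey circles for diet only and orange triangles for tofogliflozin. The symbols of the groups overlap in every line except those of miR-7043-3p and miR-7019-3p, and every line but that of miR-7059-5p belongs to the 3p arm.

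The 3p arm prevailed among the members. Of the 201 3p names 81 were detected (40.3%), and of the 202 5p names 33 (16.3%). No other range showed such a gap: the shares of 5p and 3p names were 55.6% and 52.1% up to miR-999, 48.6% and 54.3% up to miR-2999, 27.5% and 34.8% up to miR-6895, and 16.9% and 20.5% from miR-7095. Taken hairpin by hairpin, 110 of the range had at least 10 counts over both arms. The 3p arm was the larger in 81 of these (73.6%), the 5p arm in 28, and 1 had equal counts. For hairpins of other numbers the 3p arm was the larger in 153 of 322 (47.5%).

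Most hairpins gave 1 arm almost alone. The 3p arm held at least 90% of the counts in 59 hairpins and the 5p arm in 18. The same share was not taken for hairpins of other numbers, and at totals near 10 counts it is imprecise. Only 10 hairpins had both arms among the members. The miR-7063 hairpin, from Ap2a2, which encodes a subunit of a clathrin adaptor, had 34 counts on the 5p and 157 on the 3p arm (82.2% on 3p, 95% exact Clopper-Pearson interval 76.0% to 87.3%, counting error only). The miR-7083 hairpin, from the guanine nucleotide exchange factor gene Dock6, had the reverse, with 95 on the 5p and 22 on the 3p arm. The miR-6959 hairpin had 20 and 16, and the miR-6948 hairpin 11 and 97. Both directions of arm bias thus occurred within these hairpins.

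The share of the members' counts on the 3p arm was 92.9%, 91.6% and 91.0% in the diet-only replicates and 88.5%, 90.1% and 89.0% in the tofogliflozin replicates. The groups did not overlap (91.9% ± 0.948 and 89.2% ± 0.795, SD, n = 3 each). A lower 3p share without overlap was not particular to this range. Over all names with an arm from miR-7095 up it was 70.9%, 74.7% and 70.8% in the diet-only replicates. In the tofogliflozin replicates it was 67.2%, 61.8% and 65.8%. For lower numbers than those of the range the groups overlapped. Among the members the difference lay on the 5p side. Summed over the 33 5p members, abundance was 9.48, 9.46 and 10.2 CPM in the diet-only replicates and 14.8, 11.4 and 13.6 CPM in the tofogliflozin replicates. Every tofogliflozin library was above every diet-only library, with means of 9.73 ± 0.450 and 13.3 ± 1.71 CPM, a ratio of 1.37. The summed 3p members were at 111 ± 11.6 and 109 ± 5.31 CPM, a ratio of 0.989.

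This 5p sum was noticed in the data and carries no test. It rests on 76 to 235 counts a library. Without miR-7059-5p, the most abundant 5p member, it was 8.69 ± 0.686 CPM in the diet-only and 11.7 ± 1.44 CPM in the tofogliflozin group. Over all 202 5p names of the range, detected or not, it was 12.1, 13.03 and 13.4 CPM against 18.02, 16.1 and 16.9 CPM, again without overlap. Summed 5p names of other ranges had ratios of 1.01 up to miR-999, 1.10 up to miR-2999, 1.38 up to miR-6895 and 1.25 from miR-7095, with groups that overlapped in all 4, and the difference between ranges was not tested. Without tofogliflozin replicate 2, which was the highest library in each of these 4 ranges, the ratios were 0.994, 1.04, 1.11 and 1.07. The ratio of the 5p members was 1.46 without it (0.55 on the log2 scale, against 0.45 with it). These ratios without a library were added after the data were seen.

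**Figure D4:**
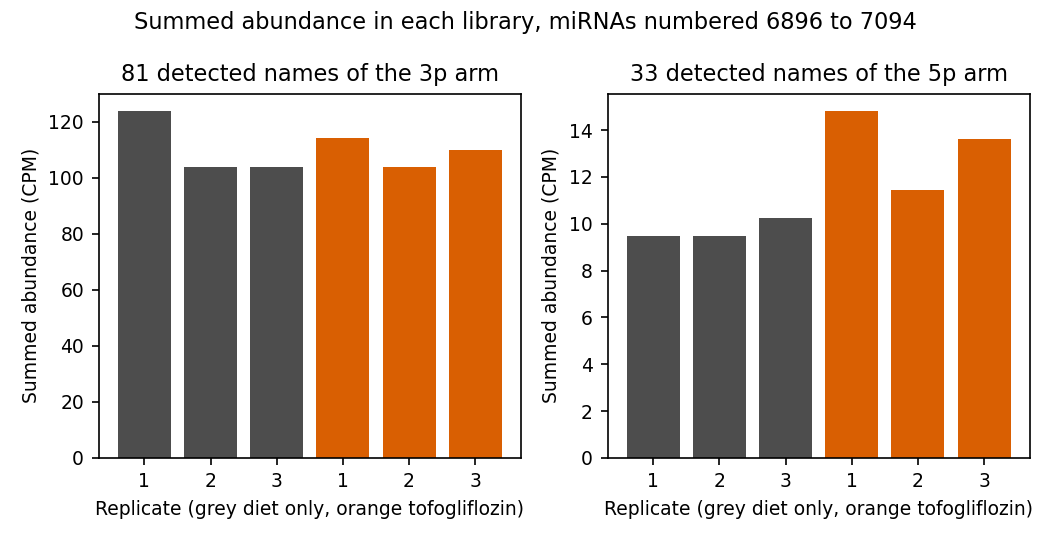
Summed abundance (CPM) in each library of the 81 detected 3p names (left) and the 33 detected 5p names (right) from miR-6896 to miR-7094; bars are single libraries, grey for diet only and orange for tofogliflozin, and the axes start at 0 with different scales. On the right all 3 orange bars (11.4 to 14.8 CPM) are above all 3 grey bars (9.46 to 10.2 CPM), and on the left they are not.

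The difference with tofogliflozin in single members was tested with edgeR's quasi-likelihood test over all miRNAs with enough counts. Of the 460 miRNAs tested 37 were members, 31 of the 3p and 6 of the 5p arm, which together held 85.1% of the members' counts. No member passed an adjusted p of 0.05, and none of the 460 did (0.0% called). The smallest Benjamini-Hochberg adjusted p was 0.854 among the members and 0.387 among all. At an unadjusted p under 0.05 there was 1 member, miR-7043-3p, where 5.0% of all tested miRNAs were at that level (2.61% higher and 2.39% lower). DESeq2 called 2 of the 460 (0.435%), neither a member, and limma-voom called 0.

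Fold changes of the members lay on both sides of 0, with 18 above and 19 below. Their median was -0.02 on the log2 scale, and the median of all 460 was -0.01. The median standard error was 0.43 for members and 0.28 for all tested miRNAs, so a given difference was harder to see among members. In 5 members, among them miR-6988-3p, miR-6956-3p and miR-6952-3p, the 95% interval lay within a 2-fold change in either direction. For the others it did not, and a change of that size lay within the error.

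**Figure D5:**
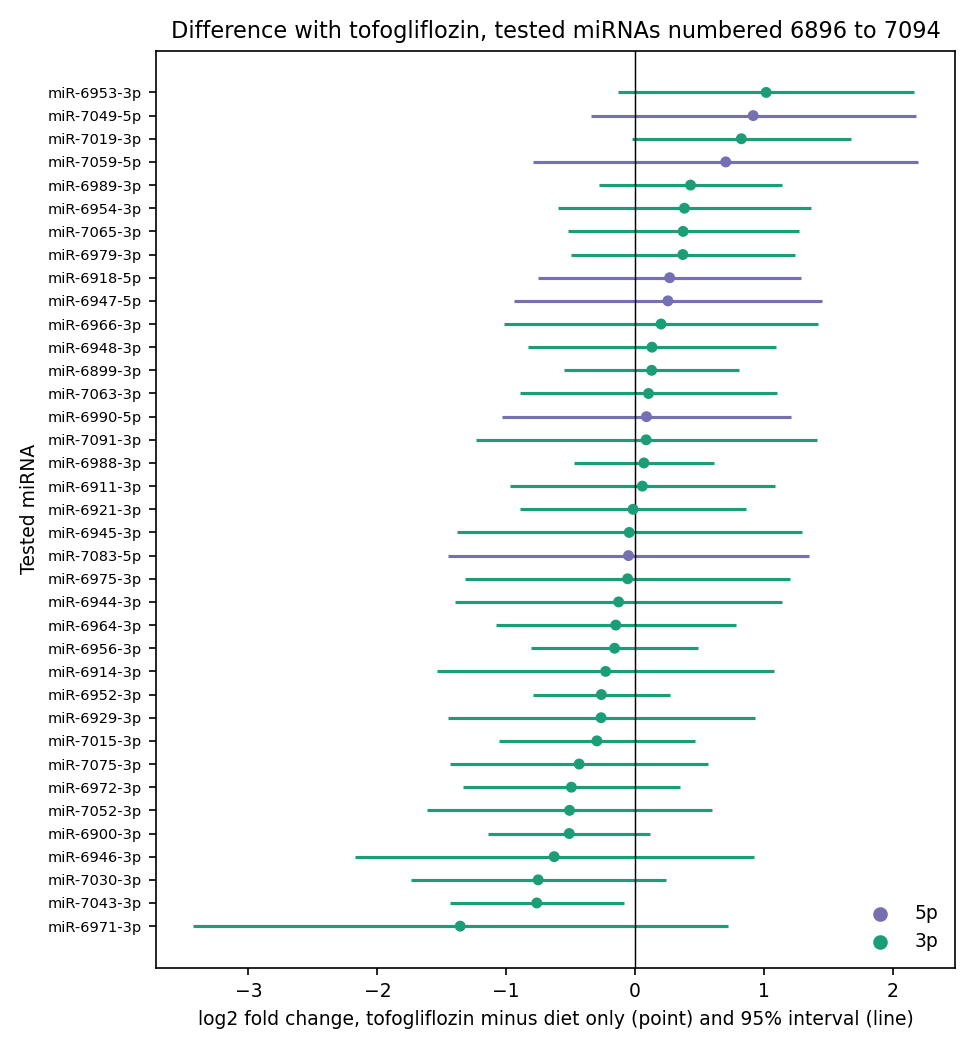
Log2 fold change with tofogliflozin (point) and 95% interval (line) of the 37 tested members, from edgeR over all 460 tested miRNAs, 5p and 3p members in different colours. The points run from -1.36 to 1.02, and the interval of only 1 member, miR-7043-3p, leaves out 0 before adjustment.

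The groups did not overlap in 2 of the 37 tested members, where 10.7% of all tested miRNAs did not overlap. The member that was lower with tofogliflozin was miR-7043-3p, from an intron of Rassf4, with 2.71, 3.50 and 3.02 CPM in the diet-only and 1.60, 1.66 and 2.26 CPM in the tofogliflozin replicates. This gave a log2 fold change of -0.76 ± 0.29 (SE), an edgeR p of 0.0316 and an adjusted p of 0.854. Lower values without overlap were found in 3.91% of all tested miRNAs.

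The member that was higher was miR-7019-3p, from an intron of Pink1, the gene of a kinase that marks damaged mitochondria. It had 2.23, 1.47 and 0.985 CPM in the diet-only and 2.54, 3.31 and 2.90 CPM in the tofogliflozin replicates. The log2 fold change came to 0.82 ± 0.37 (SE) with an edgeR p of 0.0562 and an adjusted p of 0.854. Higher values without overlap were found in 6.74% of all tested miRNAs, so the share of members was not above the background in either direction.

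The other members with the smallest p did not separate the groups. For miR-6953-3p the diet-only replicates had 1.09, 1.19 and 0.920 CPM and the tofogliflozin replicates 1.96, 3.91 and 1.16 CPM, the highest in tofogliflozin replicate 2 (log2 fold change 1.02 ± 0.50, edgeR adjusted p 0.854). For miR-7049-5p, from the kinase gene Pak4, values were 1.05, 0.490 and 0.394 CPM and 1.09, 2.11 and 0.928 CPM, again highest in that library. Values of miR-7030-3p, from the small GTPase gene Rab35, were 1.09, 1.05 and 1.84 CPM and 0.799, 1.05 and 0.638 CPM. For miR-6971-3p they ran from 0.263 to 1.62 CPM in the diet-only group and from 0 to 0.726 CPM in the tofogliflozin group. In each of the 4 the groups overlapped.

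Among the most abundant members the direction of a small difference could turn on 1 library. The log2 fold change of miR-6988-3p was 0.07 ± 0.24 (SE), and -0.10 without tofogliflozin replicate 2. That of miR-6956-3p was -0.16 ± 0.28, and 0.06 without the same library. For miR-6900-3p, with 8.78, 4.69 and 6.70 CPM in the diet-only and 4.36, 4.67 and 5.51 CPM in the tofogliflozin replicates, it was -0.51 ± 0.27, with an edgeR adjusted p of 0.854. None of these is a called difference.

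With the filter lowered to a total of 10 counts all 114 members entered the fit, among 701 miRNAs, and edgeR called none of the 701 (0.0%). At an unadjusted p under 0.05 there were 2 members and 30 miRNAs of the 701. Besides miR-7043-3p this was miR-7054-5p, which had 0, 0 and 1 counts in the diet-only and 5, 7 and 3 counts in the tofogliflozin replicates (edgeR p 0.0154, adjusted p 0.934), too few for a fold change. In this fit 23 of the 33 5p members lay above 0, with a median of 0.27 on the log2 scale, beside 153 of all 301 5p names and a median of 0.01. Of the 81 3p members 37 lay above 0, with a median of -0.07, beside 166 of all 353 3p names and a median of -0.03. These figures come from the same counts as the 5p sum and are no separate evidence for it. The members share the same 6 libraries, and miR-7054-5p reached a total of 10 mainly through the tofogliflozin group. With no filter at all edgeR called 10 of 1026 miRNAs (0.975%), none of them a member. In that fit 5 members had an unadjusted p under 0.05. The share of all 1026 at that level was not taken, so this count is no result about the members.

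Use of the arms within a hairpin was tested with limma on the log2 ratio of 5p to 3p counts in 128 hairpins whose lower arm had 5 or more counts on average. Only the miR-7063 hairpin of this range had that depth. Its 5p to 3p ratio was higher with tofogliflozin by 0.73 ± 0.45 (SE) on the log2 scale, with a limma p of 0.147 and an adjusted p of 1.0, and none of the 128 hairpins was called (0.0%). With the minimum lowered to 2 counts, 3 hairpins of the range were among 151 tested. The log2 ratio of 5p to 3p differed by -1.19 ± 0.71 (SE) in the miR-6959 hairpin and by -1.65 ± 1.03 in the miR-7083 hairpin, both with a limma adjusted p of 0.964 and opposite in sign to miR-7063. The remaining hairpins of the range had too few counts on the lower arm for this test.

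A list of 8 miRNAs known to be made without Drosha was read beside the members, whose own need for Drosha was not measured here. The classical mirtron miR-877 gave both arms, with miR-877-3p at 11.4, 9.25 and 11.2 CPM in the diet-only and 11.6, 25.4 and 7.83 CPM in the tofogliflozin replicates, near the level of miR-6956-3p. Its partner miR-877-5p had 2.18, 1.89 and 2.43 CPM against 2.76, 5.12 and 3.19 CPM, higher without overlap (edgeR adjusted p 0.854). Of the mirtron arms miR-702-3p had 79 counts in all, miR-1224-5p 16, miR-702-5p 6 and miR-1224-3p 0. The miRNAs miR-320-3p and miR-484, whose hairpins are transcribed directly with a cap, were far above all members. For miR-320-3p values were 821, 646 and 799 CPM in the diet-only and 961, 1350 and 872 CPM in the tofogliflozin replicates (edgeR p 0.0416, adjusted p 0.854). For miR-484 they were 333, 349 and 343 CPM and 350, 414 and 395 CPM (edgeR adjusted p 0.877). In both every tofogliflozin library was above every diet-only library, though for miR-484 the nearest values were 349 and 350 CPM. Higher values without overlap were found in 6.74% of all tested miRNAs, and whether this list departs from that share was not tested. Of these 8 names 5 were tested, and edgeR called none.

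By the Pearson correlation of log2 CPM over the 6 libraries, with 0.5 counts added, the members most like miR-6988-3p were miR-7078-5p (0.87) and miR-7016-3p (0.86). Those most like miR-6956-3p were miR-7063-3p and miR-7073-5p (both 0.93), and those most like miR-6952-3p were miR-6942-5p (0.85) and miR-7042-3p (0.82). These are descriptions over libraries of unequal depth, in which several of the matched members had few counts.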

How the data were processed

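Renal cortex of 6 mice, 3 a group, was used for small RNA sequencing, and the authors deposited 1 table of raw read counts per library, without normalization, per the file headers. The tools named per the submitters' processing notes are cutadapt 1.14 and, as genome build, mm10. Aligner, counting tool and miRBase version: not given in the sources used here. Each table had 2033 lines for 1900 mature names. For the 75 names listed with several hairpins the line with the largest total was taken, which touched 1 name of the range. Columns of other samples numbered 0.

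CPM are counts divided by the library total. Differences, as tofogliflozin minus diet only over 6 libraries, were tested with the quasi-likelihood test of edgeR 4.0.16 under R 4.3.3 (2-sided, TMM factors, filterByExpr at its defaults of 10 counts in a library and 15 in all, Benjamini-Hochberg adjustment over all tested miRNAs, threshold 0.05). Arm use was tested with limma 3.58.1 with a pseudocount of 1. An exact permutation test of 3 against 3 has 20 arrangements and was not used. The tests were checked on simulated data. Hairpins and mature sequences of RefSeq were placed in GENCODE M21 introns of the same build, an intron end counting as reached within 10 bases. The RefSeq entries used did not cover every chromosome. Named members are the 10 most abundant, up to 4 a direction with the smallest p (6 members not among the most abundant), up to 4 hairpins with both arms detected, 3 names on each side of the threshold, and the 2 most alike for the first 3.

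The members, lists and tests were chosen with earlier results of these data known. Alternatives were other size factors, other filters, DESeq2 1.42.0, limma-voom, the replicate number as a block, summed lines and each library left out. The groups have 3 samples each, which limits precision, and reads carried no molecular identifiers. Same-numbered libraries did not deviate together, so they were not paired.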

Additional observations from a re-analysis of the deposited data

How the results depend on the processing

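No member was called under any of the 14 alternatives, with a smallest adjusted p of 0.280, without tofogliflozin replicate 3. The median log2 fold change of tested members ran from -0.08 to 0.05 over these. Same-numbered libraries had correlations of 0.003, -0.14 and -0.17 over 460 miRNAs, so the numbers do not pair them. With the replicate number as a block 0 members were called and the median was -0.03. Of the named members' fold changes, 220 kept their direction and 4 reversed, and the cause was not tested. These were miR-6988-3p (-0.10 to 0.31 with a library left out, -0.10 without tofogliflozin replicate 2), miR-6956-3p (-0.34 to 0.061, the latter without the same library) and miR-6944-3p (-0.55 to 0.40, 0.09 with diet-only replicate 3 left out and 0.40 with tofogliflozin replicate 3 left out). The number detected followed the threshold and depth: 70 at a total of 20, 61 with a count in each library, 67 with libraries at the smallest size, and 93 to 109 with a library left out. The 5p share was 28.9% of names and 9.23% of counts. The 5p sum, whose alternatives were added after seeing the data, had a log2 ratio of 0.37 to 0.55 with a library left out. Arm use at a lower-arm mean of 2 added miR-6959 (-1.19) and miR-7083 (-1.65), uncalled. It gave no value at a lower-arm mean of 20, or without replicate 1 of either group, since none was deep enough. Depth limits most members: 77 of 114 had too few counts for the test.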
